A study of Homo sapiens with 36 samples.

Results

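DLD-1 is an epithelial cell line from a human colorectal adenocarcinoma. Its response to cigarette smoke extract (CSE, smoke constituents taken up in medium) was measured on 18 of the 36 bead arrays of the series, namely every array whose source label reads DLD control (12 arrays, no extract) or DLD smoke (6 arrays, 20% CSE). The other 18 arrays hold the T-lymphocyte line Jurkat under the same conditions, and are used here only to ask whether a DLD-1 change differs between the lines. Cells of both groups were grown in T75 flasks, RNA was taken with TriReagent, and treated cells were exposed for 2 to 6 h. The labels give the exposure time of no single array, name no passage or clone, and do not say whether the arrays of a group came from separate cultures. The p-values therefore measure the spread between these arrays, which may be technical. All levels are normalized log2 intensities, all changes are CSE minus control on the log2 scale with the standard error (SE) of the model, and adjusted p-values are Benjamini-Hochberg values from limma over 16028 genes, with a gene called at an adjusted p under 0.05.

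Smoke extract carries aldehydes, quinones, metals and polycyclic aromatic hydrocarbons. Damaged proteins release the transcription factor HSF1, which binds heat shock elements and drives chaperone genes. Electrophiles free NRF2 from its inhibitor KEAP1, and NRF2 then drives genes for glutathione, thioredoxin and haem breakdown. Aromatic hydrocarbons bind the aryl hydrocarbon receptor (AHR), which with its partner ARNT drives cytochrome P450 genes of the CYP1 family at xenobiotic response elements. The epithelium of the colon and the airway uses all of these pathways as barriers against ingested or inhaled chemicals.

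Between 16290 and 18330 probes were detected per DLD-1 array, at a median bead intensity of 99.1 to 108.7 in controls and 104.8 to 112.3 with CSE. Of 14 markers of intestinal epithelium on the array, 11 were detected on all 18 DLD-1 arrays, LGALS4 on 15 and ESRP1 on 13, and VIL1 was detected on none. No T cell or fibroblast marker was detected on all 18 arrays, and CD3E, CD247, PTPRC, COL1A1 and DCN were detected on none. The T cell markers TRAT1, CD2, ZAP70 and LAT were detected on 12, 11, 9 and 5 arrays, and COL1A2, the fibroblast marker detected most often, on 4. Of the monocyte and B cell markers CD14 and CD68 were detected on all 18 and FCGR3A on 14, whereas LYZ and TYROBP were detected on none. The summed intensity of the epithelial markers was 41192 to 47437 in controls and 39146 to 44653 with CSE, that of the T cell markers 289 to 364 and 292 to 340, that of the fibroblast markers 43.6 to 59.8 and 45.2 to 67.3, and that of the monocyte and B cell markers 304 to 439 and 284 to 461. These ranges overlapped for every marker list.

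The 18 arrays were not evenly spaced. The distance between a pair of arrays, taken as the median absolute deviation of their log2 difference over 3467 bright probes, had a median of 0.34 over 153 pairs. Among the controls 5 pairs (arrays 2 and 3, 4 and 10, 5 and 6, 7 and 9, 8 and 11) and among the CSE arrays 2 pairs (1 and 2, 3 and 5) were each other's nearest array, at 0.20 to 0.22. CSE array 6 and control array 12 were also each other's nearest, at 0.20, and the nearest array to CSE array 4 was control 12, at 0.26. Array numbers follow accession order and only name an array. When mutually nearest arrays of a group were averaged and counted as 1 sample, an alternative chosen after seeing the data, 7 control and 4 CSE samples remained and 133 genes were called, all of them among the calls of the fit to single arrays. Of the 20 largest rises, those of FOS, MIR22HG, HBEGF, ATF3 and CDKN1A were not called then, and neither were the falls of ARID5B, ID1, MT1F, TERC, PLA2G4B, HES1, LOC100132740, SH3PXD2A, PRR15L and SOX4 among the 20 largest. The arrays lay on 3 BeadChips (slides of 12 arrays), with CSE arrays 1 and 2 on BeadChip 1, arrays 3, 4 and 5 on BeadChip 2 and array 6 on BeadChip 3.

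**Figure D1:**
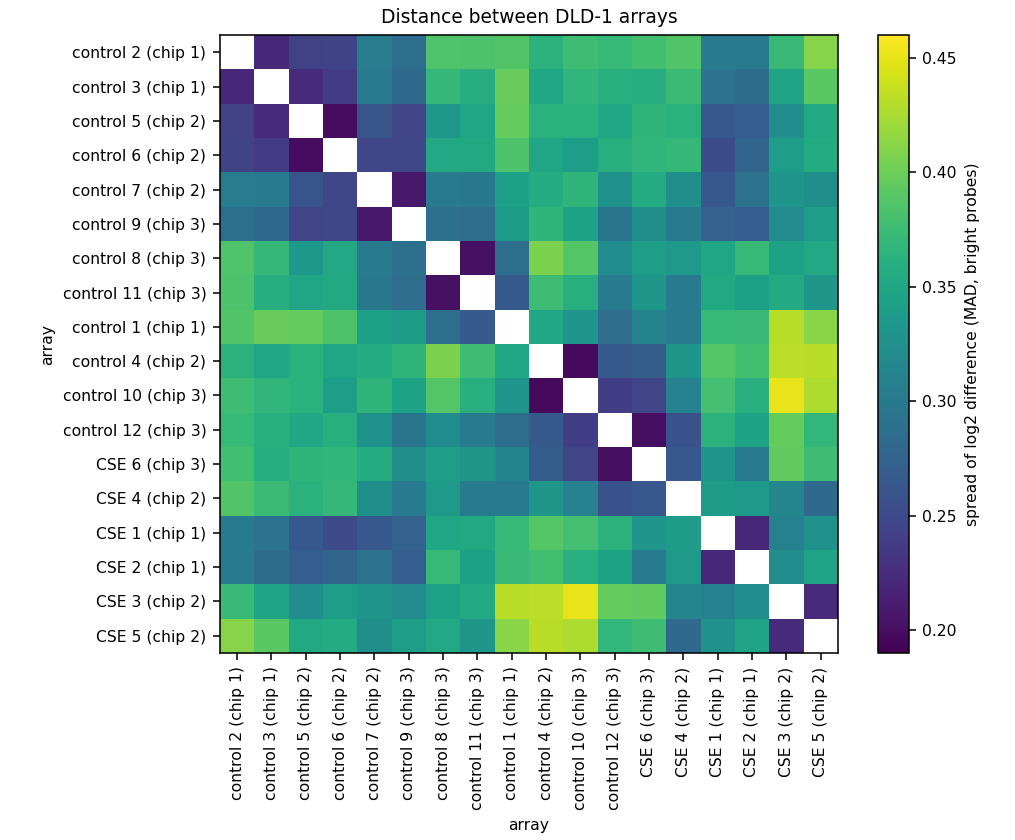
Distance between every pair of DLD-1 arrays, as the spread (median absolute deviation) of the log2 difference over 3467 bright probes; both axes list the arrays with their BeadChip (chip). Dark cells off the diagonal are close pairs, such as controls 4 and 10 at 0.20, and CSE array 6 sits beside control 12 at 0.20.

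The rises with CSE in DLD-1 cells included chaperone, CYP1, antioxidant and AP-1 genes, and the falls included TXNIP, NUAK2 and TNFRSF25. In all, 693 genes were called (4.32% of those tested), 299 higher (1.87%) and 394 lower (2.46%). Large changes were mostly rises: 78 genes rose and 24 fell at least 2-fold, and 18 rose and 1 fell at least 4-fold. The median over all genes was -0.01. On 48 genes (0.299%) all 6 CSE arrays lay above all 12 controls, and on 49 (0.306%) all lay below. Of the 693 called genes, 613 had 1 sign within all 3 BeadChips. With BeadChip as a block in the fit, 650 genes were called. The split between higher and lower calls depended on scaling: with median scaling in place of quantile normalization 443 genes were called and 61.2% of them were higher, against 43.1% here. The call count also rested on CSE arrays 3 and 5, with 293 calls without array 3 and 366 without array 5.

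The largest rise was that of HSPA6, followed by HMOX1, CYP1A1 and the heat shock genes HSPA7 and HSPA1B. HSPA6 encodes an HSP70 chaperone that is nearly silent in unstressed human cells, and the series title names it. Its level on the 12 controls ranged from 4.60 to 5.66 with a median of 5.20, and 7 of them detected it. On CSE arrays 1 to 6 it was 11.81, 11.87, 13.63, 9.24, 12.70 and 9.43. All 6 lay far above every control, with arrays 4 and 6 the lowest and arrays 3 and 5 the highest, so the SD was 1.76 with CSE (n = 6) against 0.39 in controls (n = 12). The rise was 6.30 (SE 0.51, 78.6-fold, adjusted p = 2.2e-11), and a dimmer HSPA6 probe gave 4.56. In the authors' deposited normalized values the largest rises were smaller, at 4.34 for HSPA6, 3.46 for HMOX1, 2.43 for CYP1A1 and 2.59 for HSPA7, each still called. Because the model shares 1 spread across groups, the SE of genes that varied this much with CSE may be too small.

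HSPA1B encodes the main stress-inducible HSP70. It was 9.23 to 11.15 on controls (median 10.03) and 13.94, 13.79, 14.29, 13.43, 14.39 and 13.04 on CSE arrays 1 to 6, which again did not overlap (rise 3.67, SE 0.40, 12.8-fold, adjusted p = 5.9e-08). Its neighbour HSPA1A, nearly identical in coding sequence, rose by 1.39 (SE 0.19) from a level that only 2 of 12 controls detected, so the share of either copy is uncertain. HSPA7, a pseudogene close in sequence to HSPA6, rose by 4.21 (SE 0.48), and the probe annotated to LOC652750 was detected on no control and on all 6 CSE arrays. Its mean was 7.98 ± 1.99 (SD, n = 6) with CSE, which is at least 7.67-fold higher than the lowest detectable signal on the control arrays (adjusted p = 2.4e-05). HSPH1, an HSP110 that acts as nucleotide exchange factor for HSP70, rose by 2.37 (SE 0.33) and did not overlap. HSPA4L (1.50), HSPA13 (0.83) and HSPA1L (0.44) completed the 8 of 13 measured HSP70 and HSP110 genes that rose. None fell, and the list's median was 0.83.

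DNAJ proteins deliver misfolded clients to HSP70, and 5 of 13 measured members rose (median 0.41). DNAJB1, the co-chaperone most closely tied to the heat shock response, was 8.85 to 10.15 on controls (median 9.81) and 12.22, 12.38, 12.90, 10.57, 12.16 and 11.42 on CSE arrays 1 to 6. The groups did not overlap, and the rise was 2.31 (SE 0.30, 4.97-fold, adjusted p = 2.9e-06). DNAJB4 rose by 1.87, DNAJA1 by 1.36, DNAJB6 by 1.14 and DNAJC3, a co-chaperone of the endoplasmic reticulum, by 0.81. With mutually nearest arrays averaged DNAJA1, DNAJB6 and DNAJC3 were not called (adjusted p = 0.076, 0.084 and 0.087). DNAJB4 was not called with an exact rank-sum test (adjusted p = 0.064). The DNAJB4 effect differed between BeadChips (adjusted p of the BeadChip-by-CSE F-test 0.048), with 1.55, 2.74 and 0.12 on BeadChips 1, 2 and 3.

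In the HSP90 list 5 of 14 genes rose (median 0.25). HSP90AA1, the inducible cytosolic HSP90, moved little in log2 terms from a high level, 12.91 ± 0.22 (SD, n = 12) to 13.71 ± 0.19 (SD, n = 6), yet without overlap (rise 0.81, SE 0.13, adjusted p = 0.00014). AHSA1, which speeds the ATPase of HSP90, rose by 1.40 (SE 0.25, no overlap), the co-chaperone gene CHORDC1 by 1.83, the HSP70-HSP90 adaptor STIP1 by 0.96 and the immunophilin FKBP4 by 1.05. Without CSE array 3 the adjusted p of FKBP4 was 0.055. Of 24 HSF factors, small heat shock proteins and further chaperones 5 rose and none fell (median 0.37). BAG3, a co-chaperone of selective autophagy, rose by 2.12 (SE 0.32, no overlap, adjusted p = 4.1e-05), ZFAND2A, an arsenite-inducible proteasome-associated protein, by 1.93, the mitochondrial ribosomal protein gene MRPL18 by 0.93, the collagen chaperone SERPINH1 by 1.10 and the chaperonin subunit TCP1 by 0.49. SERPINH1 and TCP1 passed narrowly, with an adjusted p up to 0.24 and 0.17 when 1 array was left out, 12 and 9 of the 18 left-out arrays ending the call. The transcripts of HSF1 (0.15, adjusted p = 0.75) and HSF2 (-0.41, adjusted p = 0.097) did not pass.

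The CSE arrays differed in the size of the chaperone response. The median change of the HSP70 list was 0.31, 0.89, 1.56, 0.83, 1.21 and 0.39 on CSE arrays 1 to 6, measured against the control mean, and 1.29 within BeadChip 2 against 0.56 and 0.46 within BeadChips 1 and 3. HSPA6 and DNAJB1 did not follow that order. HSPA6 changed by 6.95, 6.76 and 4.07 and DNAJB1 by 2.79, 1.93 and 1.98 within BeadChips 1, 2 and 3, and array 4 on BeadChip 2 was the lowest CSE array for both.

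**Figure D2:**
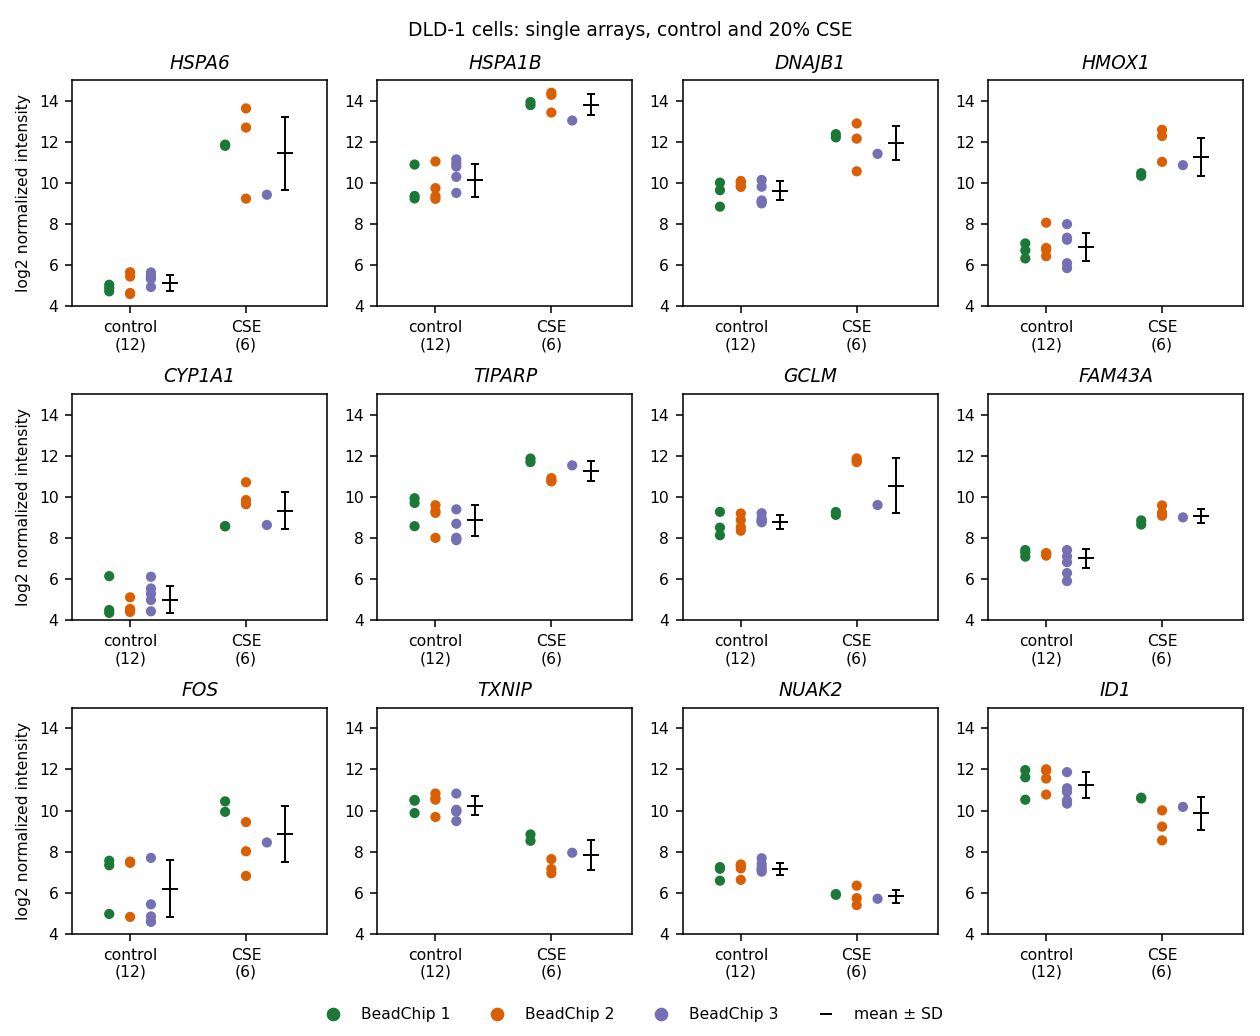
Normalized log2 intensity of 12 genes on each DLD-1 array (vertical axis), controls (12) and CSE (6), coloured by BeadChip, with black bars for mean ± SD of the group. HSPA6, HSPA1B, DNAJB1, HMOX1, CYP1A1, TIPARP and FAM43A lie above all controls on all 6 CSE arrays, TXNIP and NUAK2 lie below, and GCLM is highest on the 3 BeadChip 2 CSE arrays.

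The promoters of called genes were searched for the letters of the heat shock element, since HSF1 binds inverted repeats of GAA. The 250 bases before the transcription start were taken from RefSeq annotation of GRCh38.p14, which held 10252 of the tested genes, 206 of those called higher and 277 of those called lower. The run of 3 alternating units, GAANNTTCNNGAA or its reverse complement TTCNNGAANNTTC, stood in 0.341% of tested promoters and 0.439% of all 27305 in the table. It stood in 4 promoters of called-higher genes (1.94%) and in none of the 277 of called-lower genes. All 4 belonged to chaperone or co-chaperone genes, and they are shown because they carry this match; capitals mark the alternating units, in lower case lies the rest, and each is written 5′ to 3′ in the direction of the gene.

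HSPA6, chr1:161524290-161524539, plus strand: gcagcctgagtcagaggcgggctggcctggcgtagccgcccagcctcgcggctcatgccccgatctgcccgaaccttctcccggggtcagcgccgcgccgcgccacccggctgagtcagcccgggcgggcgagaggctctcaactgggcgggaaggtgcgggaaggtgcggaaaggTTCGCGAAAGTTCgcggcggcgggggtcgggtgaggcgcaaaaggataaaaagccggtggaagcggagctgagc
DNAJB6, chr7:157336754-157337003, plus strand: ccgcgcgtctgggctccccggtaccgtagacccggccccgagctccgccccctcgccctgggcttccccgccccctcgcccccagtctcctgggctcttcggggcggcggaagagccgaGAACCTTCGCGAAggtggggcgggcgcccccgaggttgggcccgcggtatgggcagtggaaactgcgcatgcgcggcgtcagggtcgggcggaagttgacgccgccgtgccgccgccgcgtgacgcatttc
SERPINH1, chr11:75562003-75562252, plus strand: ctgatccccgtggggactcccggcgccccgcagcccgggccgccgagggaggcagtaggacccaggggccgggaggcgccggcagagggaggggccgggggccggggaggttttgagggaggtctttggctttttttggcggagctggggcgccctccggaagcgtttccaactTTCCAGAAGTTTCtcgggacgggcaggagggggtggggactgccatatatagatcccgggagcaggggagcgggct
CHORDC1, chr11:90223050-90223299, minus strand: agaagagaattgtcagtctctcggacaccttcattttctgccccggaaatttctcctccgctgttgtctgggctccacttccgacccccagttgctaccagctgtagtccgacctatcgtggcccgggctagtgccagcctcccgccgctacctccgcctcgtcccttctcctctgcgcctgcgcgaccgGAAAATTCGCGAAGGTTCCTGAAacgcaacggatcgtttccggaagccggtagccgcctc

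The HSPA6 match begins 74 bases before the start, that of SERPINH1 76 bases and that of DNAJB6 131 bases. CHORDC1 holds 3 overlapping matches, beginning 60, 55 and 50 bases before its start. A pair of units (GAANNTTC or TTCNNGAA, which overlap the longer motif) stood in 8.92% of tested promoters, 11.7% of those called higher, 6.5% of those called lower, and 10 of 21 (47.6%) of the heat shock genes called higher that had a promoter in the table. The heat shock lists came from textbook knowledge, and the share among their members not called was not counted. Nothing about the CSE response is therefore read from that last share. HSPH1, DNAJB1 and BAG3 also rose without overlap, yet their windows held neither the longer motif nor a pair. The HSPA1B window held a pair only. These are matches of letters, and nothing in the arrays measures binding.

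In the aryl hydrocarbon receptor pathway both CYP1 genes measured and the feedback gene TIPARP rose in DLD-1. CYP1A1, the P450 that oxidises polycyclic aromatic hydrocarbons, was 4.35 to 6.14 on controls (median 4.76), of which 5 detected it. On CSE arrays 1 to 6 it was 8.57, 8.57, 9.64, 10.71, 9.84 and 8.63, so that all arrays lay clear of the controls and array 4 was the highest. The rise of 4.34 (SE 0.24, 20.2-fold, adjusted p = 5.3e-16) had the smallest p of the named genes, and in the authors' deposited values it was 2.43. CYP1B1, a P450 of the same family, rose by 1.50 from 9.02 ± 0.35 (SD, n = 12) to 10.52 ± 0.45 (SD, n = 6) without overlap (SE 0.20, adjusted p = 3.1e-06).

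TIPARP encodes an ADP-ribosyltransferase that AHR induces and that restrains AHR in turn. It was 7.89 to 9.93 on controls (median 8.96) and 11.86, 11.69, 10.91, 10.75, 10.78 and 11.53 on CSE arrays 1 to 6, again without overlap (rise 2.40, SE 0.25, 5.28-fold, adjusted p = 1.2e-08). Here the order of the arrays was turned: arrays 1, 2 and 6 were the highest and the BeadChip 2 arrays the lowest. In total 4 of 12 measured pathway genes rose, NFE2L2 (the NRF2 gene) being the fourth, and none fell (median 0.14). Transcripts of AHR (-0.35, adjusted p = 0.23) and ARNT (0.07, adjusted p = 0.93) did not pass. In Jurkat CYP1A1 was detected on 0 of 12 controls and 0 of 6 CSE arrays, so its 0.00 compares undetected signals. CYP1B1 gave -0.03 there. The line difference was 4.33 for CYP1A1 (adjusted p = 5.2e-11) and 1.54 for CYP1B1 (adjusted p = 0.00053), and did not pass for TIPARP (adjusted p = 0.063), which gave 1.36 in Jurkat.

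The xenobiotic response element core GCGTG is short and common, in 44.7% of tested promoters on either strand, 45.1% of called-higher and 46.9% of called-lower ones. The CYP1A1 window is shown for its single core, in capitals, 57 bases before the start (RefSeq, GRCh38.p14, written along the gene).

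CYP1A1, chr15:74725529-74725778, minus strand: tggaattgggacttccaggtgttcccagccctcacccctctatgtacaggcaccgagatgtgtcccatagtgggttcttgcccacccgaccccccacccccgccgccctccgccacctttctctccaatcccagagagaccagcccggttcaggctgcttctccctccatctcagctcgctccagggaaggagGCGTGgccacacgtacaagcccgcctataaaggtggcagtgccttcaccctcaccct

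The NRF2 list held 8 rises among 33 measured genes and no fall, with a median of 0.24. HMOX1, the inducible haem oxygenase, was 5.86 to 8.07 on controls (median 6.79) and 10.48, 10.35, 12.29, 11.03, 12.59 and 10.87 on CSE arrays 1 to 6. Every CSE array stood well above every control, and the rise was 4.37 (SE 0.29, 20.7-fold, adjusted p = 7.5e-14). OSGIN1, an oxidative stress-induced growth inhibitor, rose by 2.28 (SE 0.43, adjusted p = 0.00084), and its second probe gave 2.15. SRXN1, the sulfiredoxin that repairs peroxiredoxins, rose by 1.71 (SE 0.25), and GCLM, the modifier subunit of the rate-limiting enzyme of glutathione synthesis, by 1.77 (SE 0.28, adjusted p = 0.00012). SLC7A11, the cystine importer, rose by 1.60, the small MAF gene MAFG by 1.42, thioredoxin reductase TXNRD1 by 0.91 and NFE2L2 itself by 0.66. Both of the last calls ended without CSE array 3 or array 5, with an adjusted p up to 0.15 for TXNRD1 and 0.084 for NFE2L2, and that of TXNRD1 also ended without CSE array 4 or control array 11.

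Some genes of this list changed most on the 3 CSE arrays of BeadChip 2. GCLM was 8.13 to 9.27 on controls (median 8.83), and 9.12, 9.26, 11.69, 11.76, 11.87 and 9.60 on CSE arrays 1 to 6, so arrays 1 and 2 lay within the control range while arrays 3, 4 and 5 stood well above it. Its change was 0.56, 3.04 and 0.69 within BeadChips 1, 2 and 3, and the F-test for a difference in the CSE effect between BeadChips, added after seeing the data, passed (adjusted p = 0.00038). SLC7A11, detected on 4 of 12 controls, changed by 0.59, 3.03 and -0.28 (adjusted p = 0.00038), and MAFG by 0.05, 2.42 and 0.85 (adjusted p = 0.0054). For SRXN1 the values were 0.67, 2.48 and 0.91, and the F-test was just short of the threshold (adjusted p = 0.052). HMOX1 changed by 3.71, 4.95 and 3.96, and its F-test did not pass (adjusted p = 0.79).

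Across all genes the BeadChip F-test called 43 (0.268%), of which 5 were among the 33 NRF2 genes, the others being AKR1B10, an aldo-keto reductase, and UGDH. Of the 693 genes called for CSE it called 18 (2.6%), 14 of them higher with CSE. These included CBR3, a carbonyl reductase (0.54, 2.48 and 0.33), and AIFM2, a ferroptosis suppressor (-0.12, 1.65 and -0.03), both picked out after their values were seen. The list's median was 0.02, 0.69 and 0.03 within BeadChips 1, 2 and 3. BeadChip 2 and whatever else arrays 3, 4 and 5 share cannot be told apart. Not every NRF2 target followed: NQO1, a quinone reductase, was already high at 12.13 ± 0.22 (SD, n = 12) and changed by 0.17 (adjusted p = 0.79), and GCLC, the catalytic partner of GCLM, by 0.34 (adjusted p = 0.39).

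Of 26 genes for glutathione synthesis and conjugation GCLM rose and the glutathione transferase GSTM2 fell by 0.49 (median 0.06). GSTM2 had an adjusted p up to 0.11 when CSE array 2 or 5 was left out. Among 22 haem and iron genes HMOX1 alone was called (median 0.04). KEAP1 changed by 0.38 (adjusted p = 0.19).

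TXNIP, an arrestin-domain protein that inhibits thioredoxin and curbs glucose uptake, had the largest fall. It was 9.49 to 10.82 on controls (median 10.26) and 8.84, 8.53, 7.16, 7.64, 6.95 and 7.95 on CSE arrays 1 to 6. All CSE arrays lay below all controls, the lowest again being arrays 3 and 5 (5.24-fold lower, log2 -2.39, SE 0.23, adjusted p = 4.3e-09). In the thioredoxin list of 22 genes SRXN1, TXNRD1 and SESN2 rose, TXNIP fell, and the median was 0.08. SESN2, a stress-induced inhibitor of mTORC1 signalling, rose by 1.17 (SE 0.27, no overlap). TXNIP's relatives did not share 1 direction: of 14 genes of the arrestin-domain and glucose list ARRDC3 rose by 0.83 (adjusted p = 0.00023) and ARRDC4 fell by 0.61 (adjusted p = 0.045), while the glucose transporter SLC2A1 rose by 0.64 (adjusted p = 0.047). The last 2 calls were fragile, ending without any 1 of 13 and 11 of the 18 arrays, with an adjusted p up to 0.18 and 0.14.

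Metallothioneins bind zinc and other metals and are induced by the factor MTF1. Their controls fell into 2 levels. MT1F was 7.96 to 8.33 on control arrays 2, 3, 4, 5, 6 and 10 and 9.06 to 11.58 on the other 6 controls, and 7.51 to 8.48 on the CSE arrays. The CSE arrays thus matched the lower control level, and the fall of 1.32 (SE 0.40, adjusted p = 0.049) ended without any 1 of 11 arrays. MT1A, MT1E, MT1G, MT1X and MT2A gave differences between -1.68 and -1.50 with control SDs of 2.23 to 2.91, and none passed. With MT1F the only call among 18 metallothionein and zinc transport genes, the list's median was -0.05. MTF1 changed by 0.42 (adjusted p = 0.37).

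Of 12 AP-1 subunits measured 6 rose, none fell, and the list's median of 0.91 was the highest of the 40 gene lists. AP-1 factors are dimers of FOS, JUN and ATF proteins that are induced within minutes of stress or growth signals. FOS was 4.59 to 5.44 on control arrays 1, 7, 8, 9, 11 and 12 and 7.34 to 7.70 on the other 6, the reverse of the metallothionein pattern. On CSE arrays 1 to 6 it was 9.94, 10.45, 9.44, 6.82, 8.02 and 8.45, so that 5 arrays lay above all controls and array 4 lay between the control levels. The rise was 2.66 (SE 0.73, adjusted p = 0.025) and was lost without CSE array 1, 2 or 3, with an adjusted p up to 0.081. ATF3, a stress-induced repressor of the same family, rose by 2.01 (SE 0.52) and lost the call without array 2 or 3 (adjusted p up to 0.064). Its controls split over the same arrays, at 8.79 to 9.28 and 5.44 to 7.99. CSE arrays 4 (8.20) and 5 (8.73) lay between those levels.

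The other AP-1 members called kept their calls with any 1 array left out. With an exact rank-sum test JUN and FOSL1 were not called (adjusted p = 0.097 and 0.13). JUN rose by 1.90 (SE 0.34, adjusted p = 0.00051), with 5 of 6 arrays above all controls and array 4 the lowest at 7.50. JUN controls split as those of FOS did, at 7.59 to 7.84 and 6.05 to 6.78, and array 4 lay between. FOSL1 rose by 1.38, FOSL2 by 0.85 (SE 0.15, adjusted p = 0.00049) and BATF by 0.97 (SE 0.18, no overlap). For FOSL1, CSE arrays 1 and 2 (6.53 and 6.97) lay within the control range. Other immediate early genes did not rise as a group. The list of 23 such genes, named for zinc fingers and nuclear receptors, includes the BCL2-family gene MCL1, which rose. In that list the mRNA-decay factors ZFP36L1 and ZFP36L2 fell by 0.68 and 0.64, and EGR1 spread too widely in controls to be resolved (10.57 ± 1.84, SD, n = 12, change 0.59, adjusted p = 0.81). RGS2, a brake on G protein signalling, rose by 1.78 (SE 0.26, no overlap). It was the only call among 18 genes of a list named for MAP kinase phosphatases and Sprouty feedback, which includes it.

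Genes of the integrated stress response, which slows translation and induces ATF4 targets, had 4 rises of 33 and no fall (median 0.21). These were ATF3, SLC7A11, SESN2 and PPP1R15A, the phosphatase subunit that restores translation, which rose by 1.51 (SE 0.40, adjusted p = 0.018, up to 0.079 without CSE array 2 or 3). PPP1R15A controls had 2 levels, 11.43 to 11.94 on arrays 2, 3, 4, 5, 6 and 10 and 9.32 to 10.24 on the others. For this gene CSE array 4 (11.32) lay between the levels and array 6 (11.81) within the upper one. ATF4 itself was 13.66 ± 0.25 (SD, n = 12) and 13.82 ± 0.21 (SD, n = 6), a difference of 0.15 that did not pass. None of 16 aminoacyl-tRNA synthetase genes, which ATF4 also drives, was called, beside 4.32% of all genes, so nothing is read from that count. The smallest adjusted p among them, 0.24, was that of HARS1. Among 26 genes of the unfolded protein response the co-chaperone DNAJB9 rose by 1.21 and DNAJC3 by 0.81, while the ubiquitin ligase SYVN1 and the factor CREB3L2 fell by 0.57 and 0.42. DNAJB9 split over the same controls as PPP1R15A, at 7.86 to 8.47 and 6.65 to 7.45. CSE array 6 (8.12) lay within the upper DNAJB9 level. SYVN1 was lost without CSE array 3 or 5 (adjusted p up to 0.17), and CREB3L2 without any 1 of 9 arrays (up to 0.14).

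Of 27 DNA damage response genes 3 rose and none fell (median 0.04). CDKN1A, the cyclin kinase inhibitor p21, was 6.57 to 9.35 on controls (median 8.39) and 9.37 to 11.49 with CSE (median 10.09). The groups just failed to overlap, and the rise of 2.00 (SE 0.47, adjusted p = 0.0077) missed the threshold without CSE array 3 (adjusted p = 0.051). On controls 2, 3, 4, 5, 6 and 10 CDKN1A was 8.94 to 9.35, and on the other controls 6.57 to 7.83. GADD45G rose by 1.05 (adjusted p = 0.015, up to 0.077 without array 3 or 5), beside SESN2.

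Secreted and inflammatory factors moved singly. HBEGF, a membrane-bound ligand of the EGF receptor, was 5.39 to 7.85 on controls (median 6.91) and 8.15 to 9.65 with CSE (median 8.81), without overlap (rise 2.09, SE 0.45, 4.27-fold, adjusted p = 0.0032). On controls 2, 3, 4, 5, 6 and 10 HBEGF was 7.66 to 7.85, and on the other controls 5.39 to 6.17. With mutually nearest arrays averaged HBEGF was not called (adjusted p = 0.072). RHBDF1, a rhomboid-like protein that governs release of EGF ligands, fell by 0.96 (SE 0.16, adjusted p = 0.00021). Its fall was uneven, at -0.54, -1.63 and 0.07 within BeadChips 1, 2 and 3 (F-test adjusted p = 0.0025). The matricellular genes CCN2 and THBS1 rose by 1.54 and 0.81, 2 of 22 YAP and SRF genes, THBS1 with an adjusted p of 0.068 without CSE array 3. CCN2 controls had 2 levels, 8.80 to 9.66 on arrays 2, 3, 4, 5, 6 and 10 and 6.73 to 8.34 on the others. For CCN2, CSE arrays 4 and 6 lay within the upper level. The CCN2 call ended with the exact rank-sum test and with mutually nearest arrays averaged (adjusted p up to 0.15). NFKBIE, an inhibitor of NF-kB, rose by 1.11 and the cytokine LIF by 0.55, 2 of 22 genes in that list (median 0.08), LIF reaching an adjusted p of 0.055 without array 3.

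The hypoxia and glycolysis list had 4 rises of 26 and no fall (median 0.08). ADM, the vasodilator peptide adrenomedullin, rose by 1.53 from 9.38 ± 0.35 (SD, n = 12) to 10.91 ± 0.53 (SD, n = 6), without overlap (SE 0.38, adjusted p = 0.012). The collagen prolyl hydroxylases P4HA1 and P4HA2 rose by 0.49 and 0.56, and SLC2A1 was given above. Without CSE array 3 the adjusted p was 0.064 for ADM and 0.054 for P4HA1, and without array 3 or 5 it reached 0.073 for P4HA2. MICB, a stress-induced ligand of the NKG2D receptor of cytotoxic lymphocytes, rose by 1.02 (SE 0.21, adjusted p = 0.0023), the only call among 14 NKG2D ligand and MHC class I genes.

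**Figure D3:**
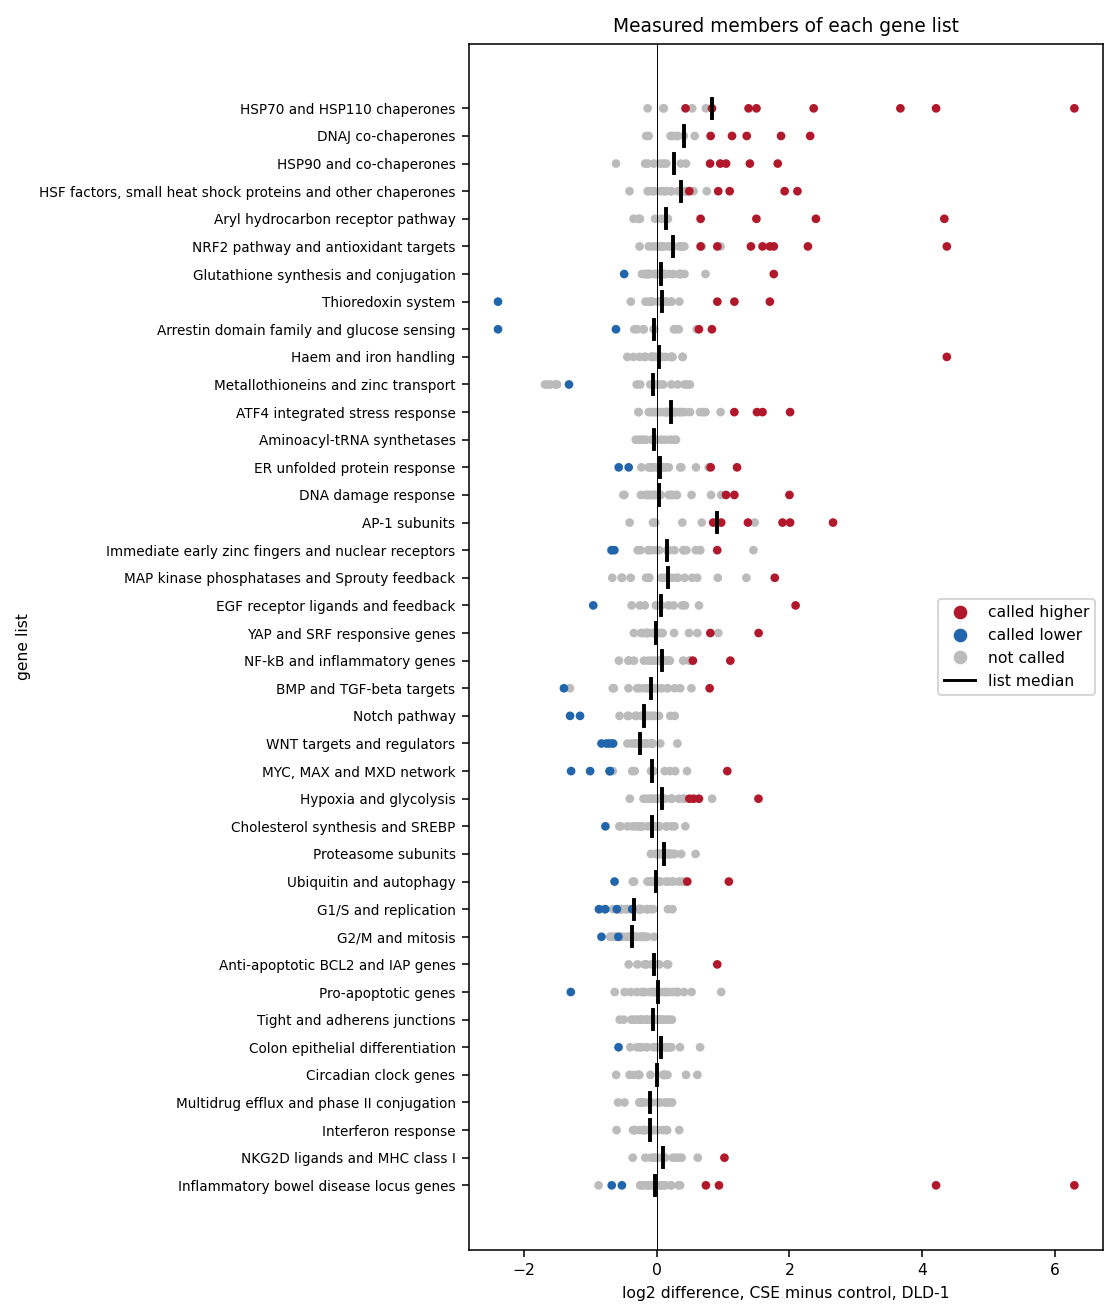
Log2 difference, CSE minus control in DLD-1 (horizontal axis), of each measured gene in the 40 gene lists (rows), coloured by whether it was called, with the list median as a black bar. The HSP70 (median 0.83) and AP-1 (0.91) lists lie furthest right and the cell cycle lists (-0.35 and -0.37) furthest left.

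Large falls were fewer than large rises. ID1, a helix-loop-helix inhibitor of differentiation and target of BMP signals, was 10.34 to 12.01 on controls (median 11.32) and 10.59, 10.63, 8.55, 10.01, 9.22 and 10.18 on CSE arrays 1 to 6. The controls had 2 levels, 11.56 to 12.01 on arrays 2, 3, 4, 5, 6 and 10 and 10.34 to 11.09 on the others. CSE arrays 1 and 2 lay within the lower level and the other 4 below all controls, and the fall was 1.40 (SE 0.35, adjusted p = 0.012). Without CSE array 3 or 5 it did not pass (adjusted p up to 0.084), and its dimmer probe gave -1.04 with an adjusted p of 0.073 over probes. In the BMP and TGF-beta list of 22 genes ID1 fell and the repressor SKIL rose by 0.80 (median -0.08).

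Notch receptors are tuned by Fringe enzymes, of which LFNG is one. LFNG was detected on 11 of 12 controls and on no CSE array, at 6.00 ± 0.50 (SD, n = 12) against 4.69 ± 0.20 (SD, n = 6), at least 1.91-fold lower with CSE in this fit (adjusted p = 5.0e-05). Over 13 alternatives in processing its log2 change ranged from -1.32 to -0.42. A second, dimmer LFNG probe changed by -0.21 and did not pass. HES1, the classical Notch target, fell by 1.15 (SE 0.35, adjusted p = 0.045), a call that ended without any 1 of 10 arrays (adjusted p up to 0.16). HES1 controls had 2 levels, 9.51 to 10.26 on arrays 2, 3, 4, 5, 6 and 10 and 8.21 to 8.74 on the others. The HES1 CSE arrays were 7.48 to 8.73. LFNG and HES1 were the 2 calls among 20 Notch genes, whose median was -0.20.

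Of 23 WNT targets and regulators 4 fell and none rose (median -0.25). DLD-1 carries a truncated APC protein, so that its WNT pathway is active without ligand. AXIN2, the feedback scaffold, fell by 0.76 from 12.24 ± 0.32 (SD, n = 12), RNF43, a ligase that removes WNT receptors, by 0.83, the factor SP5 by 0.65, and MYC by 0.71. The AXIN2 and MYC ranges overlapped those of the controls on 2 of 6 arrays, and each was lost when single arrays were left out (adjusted p up to 0.17 and 0.074). MYC controls had 2 levels, 10.94 to 11.15 on arrays 2, 3, 4, 5, 6 and 10 and 9.82 to 10.36 on the others. The MYC CSE arrays (9.55 to 10.52) lay near or below the lower level. With mutually nearest arrays averaged, RNF43, AXIN2 and MYC were not called. In the MYC network of 17 genes MNT, a MAX-binding repressor, was 2.00-fold lower without overlap (SE 0.16, adjusted p = 0.00014), MXD4 fell by 0.70 and the telomerase RNA gene TERC by 1.29, while MXD1 rose by 1.06. The TERC controls fell into the same 2 levels as those of FOS, 7.85 to 9.06 on arrays 2, 3, 4, 5, 6 and 10 and 5.87 to 7.38 on the others, and its CSE arrays (at most 6.75) lay at the lower one, with 1 below all controls. Its call ended with the DLD-1 arrays fitted alone, with the rank-sum test and with arrays averaged (adjusted p up to 0.27). Without CSE array 3 or 5 the adjusted p of MXD1 reached 0.17. The MXD4 call ended without CSE array 2, 3, 4 or 5 or control array 1 or 8, with an adjusted p up to 0.15, and with median scaling.

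Of the cell cycle genes measured 6 were called, all lower, beside 2.46% of all genes called lower. Of 33 G1/S and replication genes 4 fell (RFC4 by 0.87, MCM10 by 0.77, MCM7 by 0.60 and ORC6 by 0.37) and none rose, at a median of -0.35. Of 34 G2/M and mitosis genes CDC20 fell by 0.58 and KIF20A by 0.83, at a median of -0.37, against -0.01 over all genes. Every one of these 6 calls was lost without CSE array 5, array 3 or both (adjusted p up to 0.21). By array the G2/M median was -0.38, -0.22, -0.89, -0.05, -0.92 and 0.10 on CSE arrays 1 to 6, so that arrays 3 and 5 carried most of it and arrays 4 and 6 were near 0.

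BCL2L1, which encodes Bcl-XL, the anti-apoptotic protein in the series title, did not pass the test. It was 11.88 to 12.82 on controls (median 12.41) and 12.09 to 12.35 with CSE (median 12.19), wholly within the control range (difference -0.15, SE 0.16, adjusted p = 0.73), and its second probe gave 0.17. MCL1, a short-lived protein of the same family, rose by 0.91 (SE 0.18, adjusted p = 0.0015) and was the 1 call among 10 anti-apoptotic genes. Of 27 pro-apoptotic genes the death receptor TNFRSF25 fell by 1.29 without overlap (SE 0.18, adjusted p = 6.8e-06) and no other was called.

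Protein disposal changed at single points. The polyubiquitin gene UBB rose by 0.46 from 13.53 ± 0.16 (SD, n = 12), without overlap (adjusted p = 0.0041), and MAP1LC3B, an ATG8 protein of the autophagosome, by 1.09 (SE 0.19, no overlap, adjusted p = 0.00027). The autophagy-initiating kinase ULK1 fell by 0.63 (adjusted p up to 0.057 without CSE array 3 or 5). None of 33 proteasome genes was called (median 0.12), beside 4.32% of all genes, so nothing is read from that count. Their smallest adjusted p was 0.13 for PSMD4 (0.27, SE 0.10). Of 25 cholesterol genes the regulator SREBF1 fell by 0.77 (adjusted p = 0.0094), at 0.07 within BeadChip 3.

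Several lists that bear on an epithelial barrier held few or no calls. Of 31 tight and adherens junction genes none was called, CGN being the closest (-0.56, SE 0.18, adjusted p = 0.070). Of 22 colon differentiation genes the mucin gene MUC5AC fell by 0.57 (adjusted p = 0.016, up to 0.077 with 1 CSE array left out). No interferon, clock or efflux and conjugation gene was called, of 22, 14 and 17 measured. These counts compare with 4.32% of all genes called. In the list of 28 genes at inflammatory bowel disease loci, HSPA6 and HSPA7 apart, the prostaglandin receptor PTGER4 rose by 0.94 without overlap (SE 0.16, adjusted p = 0.00030), and RNF186 and TYK2 fell by 0.68 and 0.52. The RNF186 call ended without CSE array 3, 4 or 5 (adjusted p up to 0.092), with the DLD-1 arrays fitted alone, with the rank-sum test and with arrays averaged. The repressor PRDM1 was detected on no control and on 4 CSE arrays, at least 1.29-fold higher (adjusted p = 0.016, up to 0.13 without array 3 or 5).

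The largest changes also held genes outside these pathways. FAM43A, of little-known function, was 5.90 to 7.41 on controls (median 7.19) and 8.65 to 9.58 with CSE (median 9.04). The CSE arrays were tightly grouped and clear of the controls (rise 2.05, SE 0.15, adjusted p = 2.4e-12). EID3, a subunit of the SMC5/6 complex, rose by 2.37 (SE 0.29, no overlap) from a level detected on 3 of 12 controls. MIR22HG, the host transcript of miR-22, was 7.44, 7.13, 10.21, 8.59, 10.26 and 6.29 on CSE arrays 1 to 6 against a control median of 6.20, so that array 6 lay at the control level (rise 2.11, SE 0.40, adjusted p = 0.00075). Within BeadChip 3 its change was -0.10.

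Among the falls NUAK2, an AMPK-related kinase, was 6.59 to 7.68 on controls (median 7.20) and 5.90, 5.94, 5.40, 6.35, 5.74 and 5.71 on CSE arrays 1 to 6, without overlap (log2 -1.32, SE 0.13, 2.50-fold lower, adjusted p = 2.5e-09). Its second probe fell by 1.04. PLA2G4B, a phospholipase, fell by 1.28, the actin regulator FHOD1 by 1.03 and PNISR, a splicing-related protein, by 1.06, each with all 6 CSE arrays below all controls. With arrays averaged PLA2G4B did not pass (adjusted p = 0.077). All 3 kept PNISR probes fell. UBAP2L fell by 1.14 and CASTOR3P by 1.19, ARID5B by 1.44, SH3PXD2A by 1.05, PRR15L by 1.03 and the progenitor factor SOX4 by 1.01. SOX4 and PRR15L rested on BeadChip 2 (-1.93 and -1.45, against -0.32 and -0.02 within BeadChip 1) and were lost without CSE array 3 or 5, with an adjusted p up to 0.077 and 0.20. SH3PXD2A was lost without array 3 (adjusted p = 0.055). Probes annotated to LOC728499, LOC100132740 and LOC100134648 fell by 1.09, 1.06 and 1.04, and a second LOC100134648 probe changed by -0.04.

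**Figure D4:**
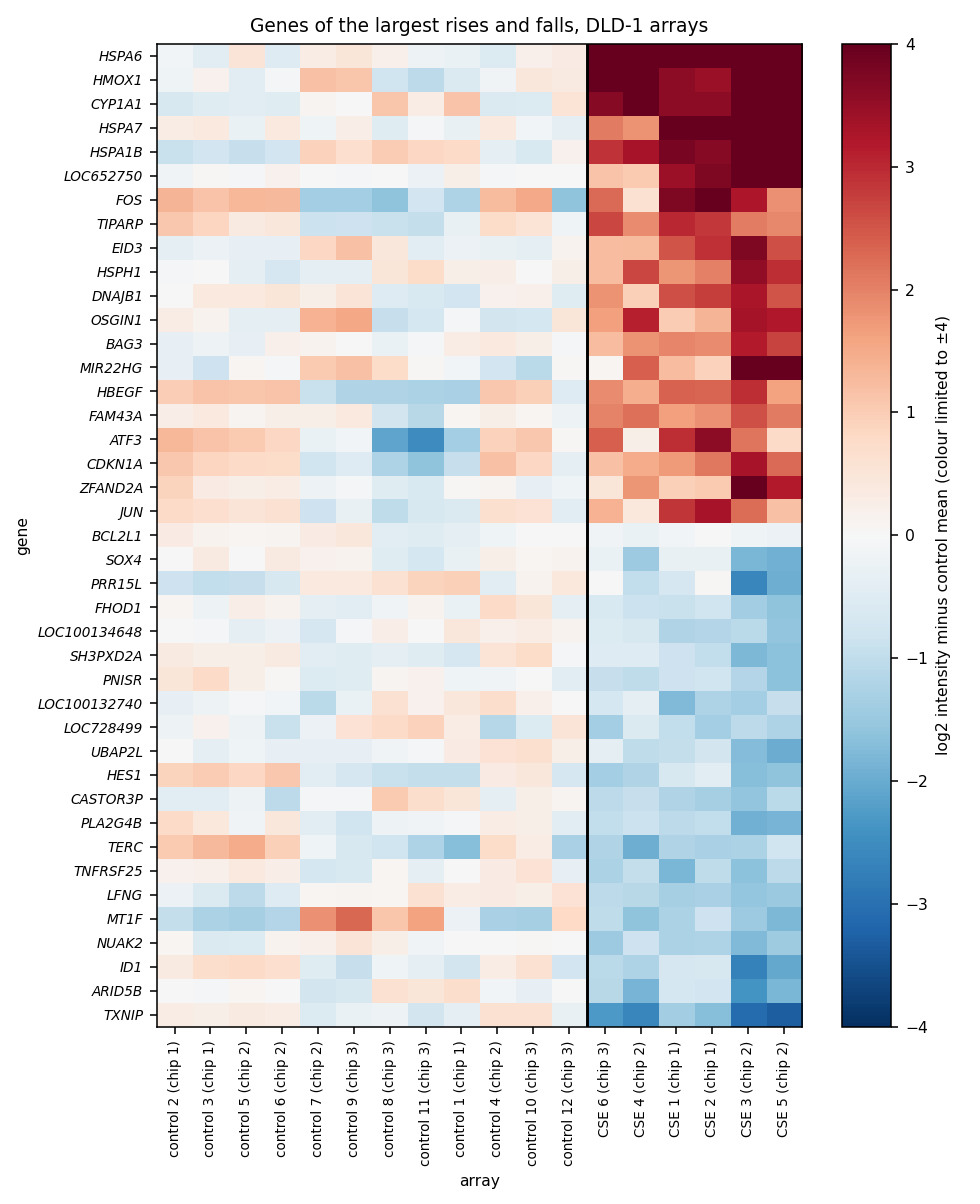
Log2 intensity minus the control mean (colour, limited to ±4) of the genes with the 20 largest rises and 20 largest falls and BCL2L1 (rows) on the 18 DLD-1 arrays (columns, with BeadChip), CSE arrays right of the line. CSE arrays 3 and 5 are the most deeply coloured, and controls 2, 3, 4, 5, 6 and 10 share a higher FOS, HBEGF and HES1 and a lower MT1F level.

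The design allows each DLD-1 change to be set against the same change in Jurkat, whose controls are separate arrays. The difference of the CSE effects was called for 1039 of all genes (6.48%) and for 174 of the 693 genes called in DLD-1 (25.1%); these were chosen for a DLD-1 change, so nothing is read from the higher share. Of the 299 called higher in DLD-1, 80 were also called higher in Jurkat and 5 lower, and of the 394 called lower, 161 were also called lower and 8 higher. In Jurkat 19.9% of all genes were called.

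HSPA6, HSPA1B, DNAJB1 and BAG3 rose in both lines, whereas HSPA1A and DNAJC3 did not pass in Jurkat (adjusted p = 0.56 and 0.93). The difference was not called for HSPA6 (5.01 in Jurkat, adjusted p of the difference 0.31), HSPA1B (4.40, 0.50), DNAJB1 (3.13, 0.27) or BAG3 (2.41, 0.77), although it was for HSPA1A (0.19, 0.0065). A p that misses the threshold does not show equal effects. FOS, JUN and CDKN1A gave 3.07, 2.37 and 1.93 in Jurkat. Antioxidant and CYP1 genes differed: HMOX1 changed by 0.40 in Jurkat (difference 3.97, adjusted p = 4.0e-08), GCLM by -0.23 (1.99, 0.0019), SRXN1 by -0.08 (1.79, 0.0019) and MAFG by -0.36 (1.78, 0.0030). HMOX1 was detected on only 3 of 12 Jurkat controls and 3 of 6 Jurkat CSE arrays. In DLD-1 GCLM, SRXN1 and MAFG changed most on BeadChip 2, which held 3 of 6 DLD-1 CSE arrays and 1 of 6 Jurkat ones. For these genes a difference between lines cannot be fully told apart from 1 between BeadChips. FAM43A (-0.06 in Jurkat), NUAK2 (0.10) and TNFRSF25 (0.03) also moved in DLD-1 with a called difference. A few changes ran in opposite directions, such as PTGER4 with 0.94 and -0.70, TENT5C with 0.65 and -0.69, and ZFP36L1 with -0.68 and 0.76. The minor spliceosomal RNA gene RNU4ATAC gave -0.86 and 1.42, but its DLD-1 controls too had 2 levels (5.87 to 6.42 and 7.23 to 7.87), the CSE arrays (5.39 to 6.42) reached into the lower one, and the DLD-1 call ended without any 1 of 6 arrays (adjusted p up to 0.092). MYC, whose DLD-1 controls also had 2 levels, fell in both, by 0.71 and 1.99, and the difference was called (adjusted p = 0.0026).

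**Figure D5:**
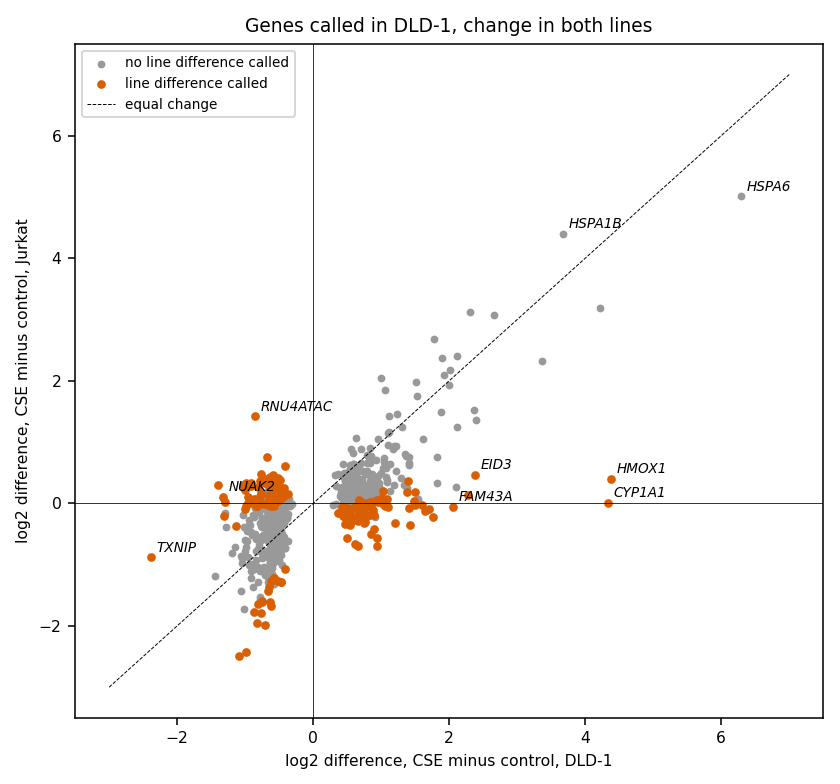
Log2 difference, CSE minus control, in DLD-1 (horizontal) against Jurkat (vertical) for the 693 genes called in DLD-1, orange where the difference between lines was called; the dashed line marks equal change. HSPA6 and HSPA1B lie near the line, and HMOX1 and CYP1A1 lie near 0 in Jurkat, where CYP1A1 was detected on no array.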

How the data were processed

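RNA of DLD-1 cells was measured on Illumina bead arrays. The authors' deposited table gives the average bead intensity of 47323 probes, not normalized per the file headers. The authors also deposited the detection p-value that sets each probe against the array's negative controls. A further deposited table of intensity values was used as an alternative. Which software made them was not given in the sources used here.

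Background was corrected with limma's neqc through the detection p-values (offset 16), followed by quantile normalization over 36 arrays and log2 (limma 3.58.1, R 4.3.3). The 22612 probes detected (p-value under 0.05) on 6 or more arrays entered, 1457 with only a Unigene name were left out, and the brightest kept probe stood for a gene (3974 genes had several). Names were updated through RefSeq (GRCh38.p14): 10902 by symbol, 1848 by older symbol, 1147 by gene number, and 2131 kept the file's name. A single limma model with 4 group means gave the contrasts. On simulated data with known changes (16028 genes, same group sizes) it recovered 40.3% of log2 changes of 0.5, 92.5% of 1 and 100% of 2, with 7 false among 162 calls. The simulated noise was normal and independent between arrays, with 1 SD per gene for all groups. The real arrays had close pairs and unequal group spreads, so these rates need not hold for them.

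Genes were named by rule: HSPA6 and BCL2L1, the 20 largest rises and falls called, up to 5 called members of each list by p (otherwise up to 2 members), pathway regulators (one is not reported here), the 10 called genes with the strongest line difference and the 5 most variable with CSE. The gene lists and comparisons were chosen with earlier results of these data known. Other genes named (HSPA4L, HSPA13, HSPA1L, TYK2, NQO1, GCLC, EGR1, AKR1B10, UGDH, CBR3, AIFM2 and the metallothioneins beside MT1F) were chosen after their values were seen. Where no array of a group detected a gene, its fold is a bound, set against the higher of its own signal and the lowest signal of a detected probe on each array. The number of arrays limits the precision. Alternatives covered the background, scaling, filter, probe choice, BeadChip, weights, a rank test and each array left out. One Jurkat control array carries a conflicting cell line field and was kept by its title.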

Additional observations from a re-analysis of the deposited data

Results flagged for a closer look

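In 141 groups of 6 CSE arrays, 1 for each named gene, 2 held a single array whose gap to its neighbour was large against the group's range. Dixon's test flags about 1 in 20 groups by chance, and 2 of 141 is below that. CSE array 6 had the highest SULT2B1 level, 8.72, and CSE array 1 the highest COL1A2 level, 5.46. SULT2B1 is a sulfotransferase of sterols, and COL1A2 is a fibroblast collagen gene detected on 1 of 6 CSE arrays.

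For 40 of the named genes the effect of CSE differed between the lines by the limma test of the difference, at an adjusted p under 0.05. Of all genes tested 6.48% did so. Some named genes were chosen by this same difference and most others for a DLD-1 change, so nothing is read from the count. The values are the DLD-1 minus the Jurkat log2 change. Among stress genes they were 4.33 for CYP1A1, 3.97 for HMOX1, 2.14 for OSGIN1, 1.99 for GCLM, 1.79 for SRXN1, 1.78 for MAFG, 1.62 for SLC7A11, 1.54 for CYP1B1, 1.20 for HSPA1A, 0.81 for ARRDC3, -1.51 for TXNIP, -0.66 for GSTM2 and -0.66 for HSF2. The DLD-1 changes of GCLM, SRXN1, MAFG and SLC7A11 were largest on BeadChip 2, so line and BeadChip cannot be fully told apart there. SULT2B1 gave -0.91 and the synthetase gene FARSB 0.65, neither of which was called in DLD-1 itself, as was also the case for HSF2. Signalling and transcription genes gave 1.64 for PTGER4, 1.28 for MYC, 1.06 for PRDM1, 0.82 for SKIL, -0.69 for SP5, -0.79 for RNF43, -0.91 for SREBF1, -1.04 for MXD4, -1.07 for RHBDF1, -1.09 for LFNG, -1.14 for AXIN2, -1.32 for TNFRSF25, -1.42 for NUAK2, -1.43 for ZFP36L1 and -1.69 for ID1. The rest were 2.11 for FAM43A, 1.90 for EID3, 1.40 for LOC728499, 1.34 for TENT5C, 1.27 for ASB1, 1.13 for TMEM181, 1.03 for MICB, -0.77 for UBAP2L, -1.33 for FHOD1 and -2.28 for RNU4ATAC. For MYC, LOC728499 and TMEM181 the fall was larger in Jurkat than in DLD-1.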

How the results depend on the processing

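Of 112 called genes named here, 37 kept their call in all 31 fits outside single BeadChips (18 with 1 array left out and 13 other alternatives). They were HSPA6, HSPA7, HSPA1A, HSPA1B, LOC652750, HSPH1, DNAJB1, HSP90AA1, AHSA1, CHORDC1, BAG3, ZFAND2A, MRPL18, HMOX1, CYP1A1, CYP1B1, TIPARP, SRXN1, EID3, FAM43A, FOSL2, BATF, MCL1, RGS2, MAP1LC3B and PTGER4 among the rises, and TXNIP, NUAK2, LFNG, TNFRSF25, CASTOR3P, UBAP2L, PNISR, LOC100134648, FHOD1, MNT and TMEM181 among the falls. None of the 112 was reversed outside single BeadChips.

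The 693 calls (299 higher, 394 lower) became 443 with median scaling (172 lower), 243 with an exact rank-sum test (108 higher, 135 lower) and 133 when near-identical arrays were averaged (77 and 56), an alternative chosen after seeing the data that leaves fewer samples. Leaving out 1 array gave 293 to 921 calls, 137 to 419 higher and 156 to 502 lower. Within BeadChips, which hold fewer arrays, there were 36 calls on BeadChip 1 (26 higher, 10 lower), 629 on BeadChip 2 and 1 on BeadChip 3 (1 higher, 0 lower; limma, 599 at an unadjusted p under 0.05). The 1039 line differences became 5, 172 and 0 within BeadChips 1, 2 and 3, 629 to 1240 with 1 array left out, and 305 with arrays averaged. Directions were reversed within BeadChip 1 for MXD1 (-0.10), ASB1 (-0.0863) and AIFM2 (-0.12), and within BeadChip 3, which holds 1 CSE array, for MIR22HG (-0.10), SLC7A11 (-0.28), AIFM2 (-0.03), RHBDF1 (0.0661), SREBF1 (0.0698), RFC4 (0.19), CDC20 (0.12) and KIF20A (0.00065). The cause was not tested. No paired analysis was possible because the labels carry no replicate numbers. EID3, near background in controls, changed by 0.98 in the authors' deposited values. Some falls also shrank over the 13 other alternatives while still called. The smallest changes were -0.58 for NUAK2, -0.465 for TNFRSF25, -0.42 for LFNG, -0.39 for CASTOR3P and -0.34 for FHOD1, whereas TXNIP gave -1.92 at the least.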
